A study of Mus musculus and Homo sapiens with 14 samples.

Results

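The FOS, JUN and EGR immediate early genes were followed through 4 comparisons of acute myeloid leukemia cells. The 10 genes, Fos, Fosb, Fosl1, Fosl2, Jun, Junb, Jund, Egr1, Egr2 and Egr3, were taken by symbol from the deposited tables, in upper case in the human table. All 10 were listed among the 20682 rows of the mouse tables and all 10 among the 19166 rows of the human table.

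FOS and JUN proteins are leucine zipper transcription factors that pair with each other to form AP-1, and EGR proteins are zinc finger factors. Their genes are called immediate early genes because growth factors, serum and other signals switch them on within minutes, mainly through kinases such as ERK and JNK acting on factors already present, with no need for new protein. Salt-inducible kinases (SIKs) phosphorylate the CRTC coactivators of CREB and the class IIa histone deacetylases that hold MEF2 factors in check, and both CREB and MEF2 factors are known to bind the control regions of several immediate early genes.

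Messenger RNA was measured by polyA-selected RNA sequencing in 14 libraries, in 7 groups of 2. MOLM-13, a human leukemia line with an MLL-AF9 fusion that here carried an empty vector, received 250 nM YKL-05-099, a SIK inhibitor, or 0.1% DMSO, each for 2 h. RN2, mouse acute myeloid leukemia cells made with MLL-AF9 and an Nras mutant, received 350 nM YKL-05-099 or 0.1% DMSO, each for 2 h, and the titles of these libraries also carry the word empty. RN2c, the same leukemia with Cas9, was infected with a guide RNA against Sik3 (guides e1 and e3), against Mef2c (guides 1 and 2) or against the Rosa26 locus, where cutting serves as a control, and was collected on day 2. Each Sik3 or Mef2c library carried its own guide, so the spread within those groups includes the difference between guides. The cells were infected populations and not described as clones, and the inhibitor was given at 1 dose and 1 time in each line.

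A library held 16859820 to 22609627 recovered reads for MOLM-13, 13961461 to 14943682 for RN2 and 19065348 to 24275290 for RN2c. With sgSik3, Sik3 read 1219 and 1169 normalized counts, against 1939 and 1878 with sgRosa26, and with sgMef2c, Mef2c read 3892 and 4022, against 8395 and 8369 with sgRosa26. Guide-directed cutting need not remove the transcript, and cut and uncut cells were measured together. None of 8 myeloid and pan-leukocyte markers was at 0 in any library, and their sum was higher in the sgSik3 libraries (3453 and 3422 RPM, reads scaled to the total of their library) and the sgMef2c libraries (3563 and 3761) than in the sgRosa26 libraries (2498 and 2650). The sum of 17 markers of other blood and stromal cells was 22.6 and 24.0 RPM with sgSik3 and 21.2 and 14.9 with sgMef2c, against 37.7 and 83.7 with sgRosa26, and 6 to 9 of the 17 were at 0 in each of these libraries. The mast cell protease gene Cpa3 made up most of the difference between the sgRosa26 libraries, at 614 and 1548 normalized counts. It also made up most of the lower sums with the guides. Cpa3 read 323 and 349 with sgSik3 against those values. With sgMef2c it read 295 and 162, against 646 and 1623 with sgRosa26 as scaled there. The part of these markers in the results below was not tested. In bulk RNA, fewer cells of a type and less RNA per cell cannot be told apart.

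Values are normalized read counts as deposited, with the value of each library given in the order of its replicate or guide number. Each table was scaled separately, and the same sgRosa26 reads serve the sgSik3 and the sgMef2c table, so their sgRosa26 values differ by a constant factor and the knockout comparisons share their controls. A gene was tested where its mean over the 4 libraries of its table was at least 10. Changes are log2 fold changes on the log2(value + 1) scale with their standard error (SE), tested with limma, with p-values adjusted over all genes tested in that table and called under 0.05. The labels do not say whether the 2 libraries of a group were separate cultures. The p-values therefore reflect only their spread, possibly technical.

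**Figure D1:**
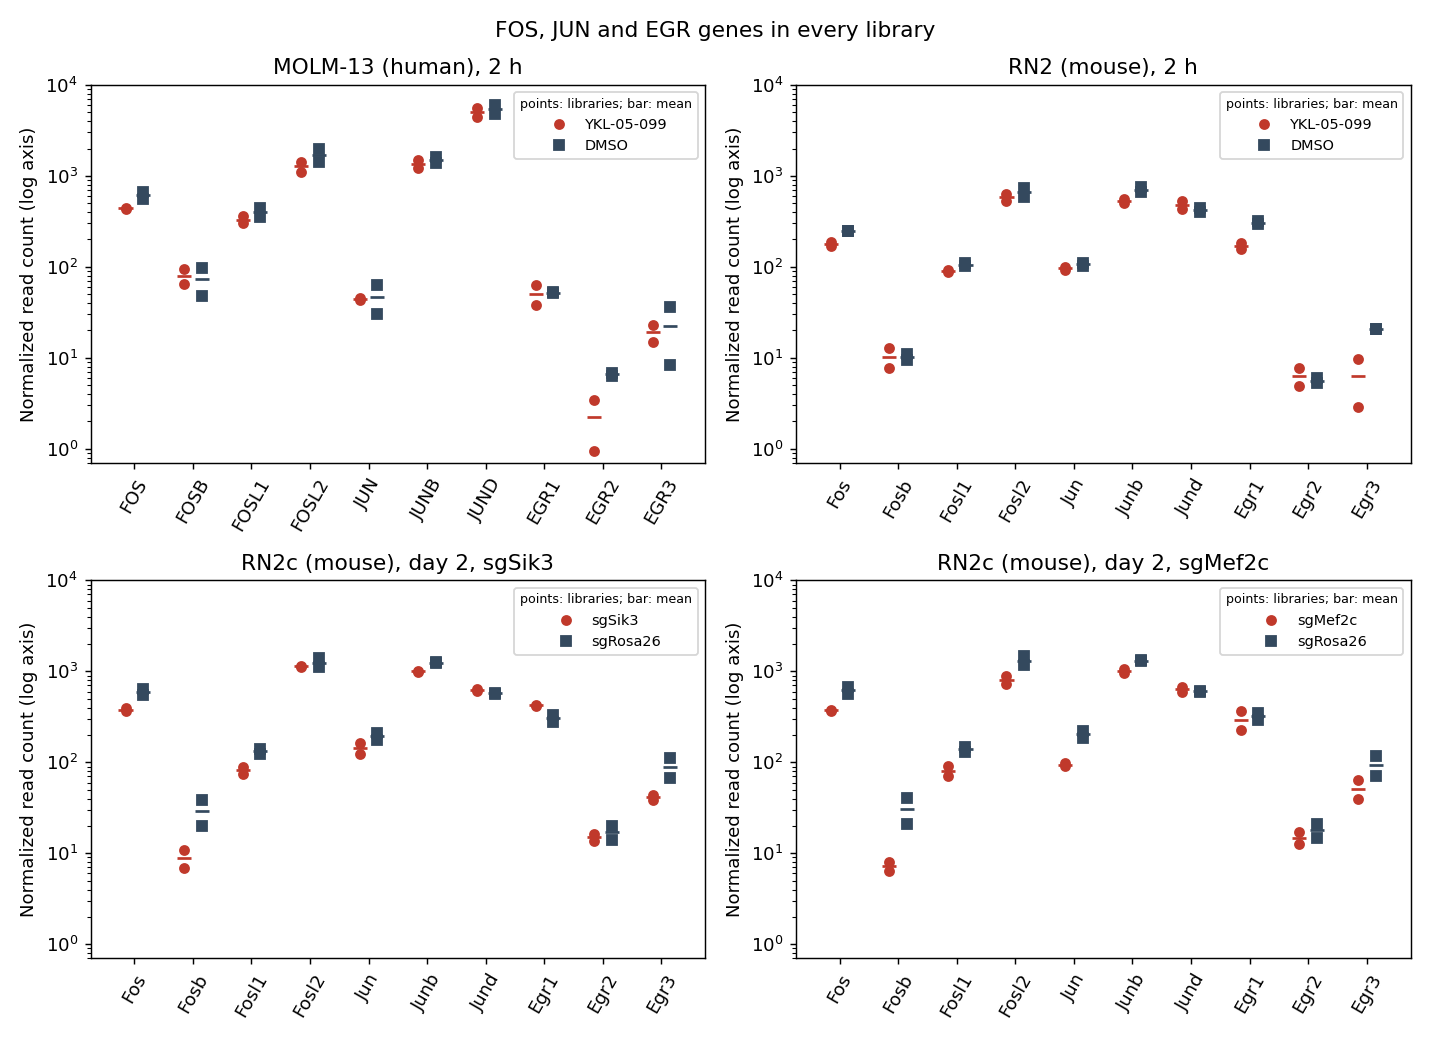
Normalized read count (log axis) of each of the 10 genes in every library, 1 panel per deposited table, with circles for the inhibitor or knockout libraries, squares for the DMSO or sgRosa26 libraries and a bar at the mean of 2. The circles of Egr1 lie below the squares in RN2 at 2 h and above them with sgSik3, and those of Fos lie below the squares in all 4 panels.

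Per length of transcript, Junb and Jund were the most abundant of the 10 genes in every mouse group and Fosb and Egr2 or Egr3 the least. With sgRosa26, RPKM levels, reads per kilobase of exon scaled like RPM, were 26.4 ± 0.41 for Junb, 16.8 ± 0.27 for Jund, 12.3 ± 1.48 for Fos and 6.32 ± 1.02 for Fosl2 (SD, n = 2 libraries). Egr1 at 3.33 ± 0.44, Fosl1 at 3.18 ± 0.28 and Jun at 2.97 ± 0.43 RPKM lay within each other's spread. Egr3 followed at 0.994 ± 0.34, and Egr2 at 0.245 ± 0.058 and Fosb at 0.229 ± 0.10 RPKM could not be ranked. RN2 cells in DMSO had the same order of means, with Junb at 20.9 ± 1.70, Jund at 17.3 ± 1.48, Fos at 7.23 ± 0.017 and Egr1 at 4.66 ± 0.25 RPKM. No gene model of the human build was used here, so no level per length is given for MOLM-13.

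Lengths came from the exons of GENCODE vM21 on GRCm38, the annotation that also places the genes. The 10 genes are spread over 9 chromosomes, with only Junb and Jund on the same one. Jun and Jund each have a single exon. Exons of 4 of the genes overlap those of a gene on the other strand, by 1163 bases for Fosl1 with Ccdc85b, 232 for Jun with Junos, 173 for Junb with Prdx2 and 877 for Jund with Gm11175. Whether the authors' counting used strand is not given in the sources used here, so reads in those stretches are uncertain.

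RefSeq promoter windows (GRCm38.p6) matched 7 of the 10 genes, with no entry for Fosl1, Egr1 or Egr3. Among the genes with a window that fell with sgMef2c, the 250 bases before the RefSeq start are shown for Fos, Fosb, Fosl2 and Jun. Junb has a window and fell there too, and its matches are given without the sequence. They lie at chr12:85473640-85473889 (plus strand) for Fos, chr7:19310046-19310295 (minus strand) for Fosb, chr5:32136222-32136471 (plus strand) for Fosl2 and chr4:95052223-95052472 (minus strand) for Jun. Each is printed 5′ to 3′ on the strand of its gene, ending just before the RefSeq start, with the motif matches named after them in capitals.
Fos: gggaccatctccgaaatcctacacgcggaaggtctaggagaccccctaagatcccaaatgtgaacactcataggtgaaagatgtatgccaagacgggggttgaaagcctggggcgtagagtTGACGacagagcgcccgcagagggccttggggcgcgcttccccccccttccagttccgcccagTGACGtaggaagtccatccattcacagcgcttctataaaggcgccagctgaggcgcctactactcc
Fosb: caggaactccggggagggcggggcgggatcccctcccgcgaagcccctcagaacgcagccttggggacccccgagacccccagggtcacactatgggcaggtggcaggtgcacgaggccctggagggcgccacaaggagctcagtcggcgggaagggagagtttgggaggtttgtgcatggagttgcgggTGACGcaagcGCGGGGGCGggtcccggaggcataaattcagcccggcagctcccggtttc
Fosl2: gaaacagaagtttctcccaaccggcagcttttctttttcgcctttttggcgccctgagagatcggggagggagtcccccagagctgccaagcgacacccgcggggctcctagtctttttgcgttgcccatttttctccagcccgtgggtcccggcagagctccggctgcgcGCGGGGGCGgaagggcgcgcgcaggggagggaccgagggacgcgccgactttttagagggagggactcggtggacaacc
Jun: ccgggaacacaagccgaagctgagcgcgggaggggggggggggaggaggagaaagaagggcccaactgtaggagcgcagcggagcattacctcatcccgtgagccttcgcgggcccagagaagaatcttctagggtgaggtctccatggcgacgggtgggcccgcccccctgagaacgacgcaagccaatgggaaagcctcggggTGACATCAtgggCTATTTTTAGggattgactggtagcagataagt
The 6 motifs searched, on both strands, were the core of the CREB element (TGACG), the longer element TGACNTCA, which contains that core where N is G, the AP-1 site TGANTCA, the EGR site GCGNGGGCG, the MEF2 site and the CArG box, where SRF binds. Fos held TGACG starting 129 and 66 bases before its start, Fosb held it 60 bases and Junb 106 bases before. Jun held TGACATCA 45 bases and a MEF2 site 33 bases before its start, the only MEF2 match in the windows of the 7 genes. The EGR site stood 50 bases before the start of Fosb and 79 bases before that of Fosl2. Egr2, which passed no test in any comparison, has 5 overlapping or neighbouring windows. Of these, 3 held TGACG on both strands and 4 held a CArG box. The windows with TGACG overlap, and their matches are the same sites, with the same CArG box (CCATATATGG). A neighbouring window held the other CArG box (CCTTTTTTGG). No other CArG match lay in the windows of the 7 genes, and bases further upstream were not searched. The window of Jund held 0 of the 6 motifs. That window ends upstream of the GENCODE start of Jund without reaching it. The 250 bases before the GENCODE start of Jund were therefore not searched. Of all 32851 windows of this length, 17.8% held TGACG, 7.49% TGACNTCA, 6.75% TGANTCA, 4.7% the EGR site, 2.92% the MEF2 site and 1.47% a CArG box. A match is a description of the letters and does not show that a factor binds there.

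In RN2 cells given the inhibitor for 2 h, Egr1 was the gene that fell most clearly. Egr1, a zinc finger factor with roles in myeloid differentiation, read 181 and 156 normalized counts with YKL-05-099, against 295 and 316 with DMSO. Both treated libraries lay well below both controls, a 1.81-fold lower level (log2 fold change -0.86, SE 0.11, limma adjusted p = 0.0135). It was the only one of 9 tested members called, where 0.28% of the 10732 genes tested were called lower and 0.0373% higher, with Egr2 under the level filter. The call was lost without limma's mean-variance trend (adjusted p = 0.285) and without the level filter (adjusted p = 0.339).

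Other members lay lower in RN2 with the inhibitor without passing the test. Fos, the founding AP-1 subunit, read 187 and 170 with YKL-05-099, against 249 and 248 with DMSO (log2 fold change -0.48, SE 0.11, limma adjusted p = 0.158). Junb, a JUN family partner, read 564 and 506, against 746 and 661 (-0.39, SE 0.09, adjusted p = 0.127). The groups did not overlap for either gene. Egr3, which is related to Egr1 and known for its roles in lymphocytes, read 2.92 and 9.77, against 21.0 and 21.0 (-1.76, SE 0.50, adjusted p = 0.315), values that rest on 3 and 10 reads in the treated libraries and 20 and 21 in the controls. At an unadjusted p under 0.05, 4 of the 9 tested members were lower (Fos, Junb, Egr1 and Egr3), where 3.89% of all genes were. With the replicate number as a block, a pairing the labels do not state, limma called the same 4 among 499 genes.

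The remaining RN2 members lay closer to their controls. Fosl1 read 87.5 and 91.8 with YKL-05-099, against 109 and 101 with DMSO, and Jun read 92.3 and 99.7, against 111 and 103. Fosl2 read 634 and 535, against 740 and 586, with overlap, and Fosb, at 7.78 and 12.7 against 9.44 and 11, had similar values in both groups. Jund, the JUN family member usually expressed steadily, was the only tested member with a positive estimate in limma, at 437 and 528 with the inhibitor against 397 and 445 with DMSO (0.19, SE 0.10, limma adjusted p = 0.756). Egr2 read 4.86 and 7.82, against 5.25 and 6.0. In all, 6 members were lower in both treated libraries than in either control, where 18.7% of genes were, and the median log2 fold change of the 9 was -0.23, against -0.00090 over all genes. Left without DMSO replicate 2, Fos (adjusted p = 0.0487), Fosl2 (0.0279) and Junb (0.000712) were called too, and without YKL-05-099 replicate 2 Egr3 was (0.0482), all lower. The replicate 1 libraries of RN2 listed more genes with reads than the replicate 2 libraries (14578 against 13142 with YKL-05-099, 13824 against 13162 with DMSO), and the part of that difference in these values was not tested.

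In MOLM-13 cells given the inhibitor for 2 h, no member was called by limma, edgeR or DESeq2 fitted without a replicate block, and limma called 0.0% of the 11361 genes tested. FOS had the smallest p among the members, with 437 and 443 normalized counts with YKL-05-099, against 552 and 667 with DMSO. Both treated libraries lay below both controls (log2 fold change -0.46, SE 0.13, limma adjusted p = 0.9999). FOS was the 1 member of 9 lower at an unadjusted p under 0.05, where 0.546% of genes were. FOSL2, an AP-1 subunit that is a relative of FOS, read 1112 and 1437.7 with the inhibitor, against 1438.2 and 1994 (-0.42, SE 0.19), so that the higher treated library lay just under the lower control. For both genes each inhibitor library read below the DMSO library of its number. With the replicate number as a block, limma called both lower (adjusted p = 5.8e-07 and 9e-13), among 290 genes. The labels do not state such a pairing.

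For the other members of MOLM-13, DMSO libraries were often far apart. EGR3 read 15.1 and 22.9 with YKL-05-099, against 8.39 and 35.9 with DMSO, and JUN read 42.9 and 45.9, against 30.4 and 62.4. FOSB read 64.9 and 93.6, against 48.2 and 97.5. In each of these the treated values lay between the controls. EGR1, which fell in RN2, read 38.2 and 63.1, against 51.4 and 53.0 (log2 fold change -0.09, SE 0.29). FOSL1 read 302 and 358, against 356 and 446, JUNB 1220.1 and 1499.8, against 1374 and 1629.5, and JUND 4427 and 5542, against 4732 and 6030.5, all with overlap. For FOSL1, JUNB and JUND, replicate 2 read above replicate 1 in both groups, and each inhibitor library read below the DMSO library of its number. FOSB, JUN, EGR1 and EGR3 were lower at 1 number and higher at the other. The labels do not say that a number pairs the libraries. EGR2 was under the level filter, with 3 and 1 reads in the treated libraries and 6 and 8 in the controls. Groups were separate for 2 tested members, FOS and FOSL2, both lower, where 10.5% of genes were lower with no overlap, and the median log2 fold change of the 9 was -0.11.

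On day 2 after infection with sgSik3, 6 of the 10 members fell and 1 rose, where 23.9% of the 10934 genes tested fell and 23.9% rose. The members that fell were 3 of the FOS family (Fos, Fosb and Fosl1), 2 of the JUN family (Jun and Junb) and Egr3, and the one that rose was Egr1. The median log2 fold change of the 10 was -0.38, against -0.00054 over all genes.

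Fos read 395 and 365 with sgSik3, against 640 and 544 with sgRosa26, 1.55-fold lower (log2 fold change -0.64, SE 0.09, limma adjusted p = 0.000464). Fosb, a FOS family member of low level here, read 6.81 and 10.9, against 19.8 and 38.9 (-1.58, SE 0.41, adjusted p = 0.011). Fosl1, also called FRA1, read 74.9 and 89.5, against 140 and 125 (-0.68, SE 0.15, adjusted p = 0.00549). For each of the 3 genes both knockout libraries lay below both controls, although the sgRosa26 libraries of Fosb were themselves about as far apart as 19.8 and 38.9. Fosl2, also called FRA2, overlapped, at 1143 and 1122 with sgSik3 against 1387 and 1113 with sgRosa26 (-0.13, SE 0.09, adjusted p = 0.242).

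In the JUN family, Junb read 1000.2 and 994 with sgSik3, against 1253 and 1237 with sgRosa26, a small fall with close libraries (log2 fold change -0.32, SE 0.05, limma adjusted p = 0.000511). Jun, the founding JUN factor, read 125 and 162, against 213 and 175 (-0.44, SE 0.16, adjusted p = 0.044). Its guides were far apart, and the call was lost with DESeq2 (adjusted p = 0.132), without the trend (0.131), without the level filter (0.078), without sgRosa26 replicate 1 (0.115) and without guide e1 (0.297). Jund read 643 and 609, against 579 and 570, separate but not past the test (0.12, SE 0.06, adjusted p = 0.142).

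In the EGR family the members went different ways with sgSik3. Egr1 read 426 and 418 with sgSik3, against 276 and 335 with sgRosa26, 1.39-fold higher (log2 fold change 0.47, SE 0.10, limma adjusted p = 0.00456). Egr3 read 38.9 and 43.7, against 67.7 and 112, 2.08-fold lower (-1.06, SE 0.24, adjusted p = 0.00642). Both groups were separate for each gene, in opposite directions. Egr2, which drives myelination and also acts in myeloid cells, read 13.6 and 16.4, against 14.1 and 19.9, with overlap (-0.16, SE 0.33, adjusted p = 0.723). The Egr1 call held in all 12 alternatives, and its adjusted p ranged up to 0.0439.

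Counting by groups that did not overlap, 6 members were lower with sgSik3 and 2 higher, where 37.8% and 37.4% of all genes were. Without the e1 library, Fosb (adjusted p = 0.0769), Fosl1 (0.0533) and Egr3 (0.0511) no longer passed in limma, and without the trend Fosb (0.0547) and Egr3 (0.0521) did not. Without sgRosa26 replicate 2, Fosl2 was called lower (1.67e-05).

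With sgMef2c, 6 of the 10 members fell and 0 rose, where 15.1% of the 10956 genes tested fell and 16.3% rose. All 4 FOS family genes and both Jun and Junb fell, and no EGR gene passed the test. The median log2 fold change of the 10 was -0.72, against 0.00016 over all genes. At an unadjusted p under 0.05, 7 of the 10 were lower, where 21.2% of genes were, and 0 were higher. With edgeR, 6 members were called among 3425 genes, and with DESeq2 6 among 2255.

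Among the JUN genes, Jun read 97.6 and 90.5 with sgMef2c, against 223 and 183 with sgRosa26, 2.14-fold lower (log2 fold change -1.10, SE 0.14, limma adjusted p = 0.00198). Junb read 1060.1 and 966, against 1317 and 1296 (-0.37, SE 0.06, adjusted p = 0.0048). Each had all knockout libraries below all controls. Jund overlapped, at 599 and 676 against 608 and 598 (0.08, SE 0.08, adjusted p = 0.482).

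In the FOS family, Fos read 381 and 363 with sgMef2c, against 672 and 571 with sgRosa26, 1.67-fold lower (log2 fold change -0.74, SE 0.09, limma adjusted p = 0.00193). Fosl2 read 886 and 719, against 1458 and 1167, 1.63-fold lower (-0.71, SE 0.13, adjusted p = 0.00678). Fosl1 read 90.4 and 70.0, against 147 and 131 (-0.79, SE 0.17, adjusted p = 0.0128). Fosb was low, at 8.06 and 6.46 against 20.8 and 40.8, from 9 and 6 reads against 21 and 39 (-1.87, SE 0.40, adjusted p = 0.013). The knockout libraries of all 4 genes lay below their controls.

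The EGR genes did not pass. Egr1 read 225 with guide 1 and 364 with guide 2, against 290 and 351 with sgRosa26, so that the guides enclosed both controls (log2 fold change -0.16, SE 0.22, limma adjusted p = 0.617). Egr3 read 39.4 and 63.5, against 71.2 and 117, separate but not past the test (-0.85, SE 0.31, adjusted p = 0.0727). Egr2 read 12.5 and 17.2, against 14.8 and 20.9 (-0.25, SE 0.34). Counting Egr3, 7 members were lower with no overlap, where 35.0% of genes were. Leaving out sgRosa26 replicate 1 (adjusted p = 0.0639) or guide 2 (0.0624) ended the limma call of Fosl1 and made one of Egr3 (0.0368 and 0.041), and leaving out sgRosa26 replicate 2 ended that of Fosb (0.0823). Without the trend, Fosl1 (0.05002) and Fosl2 (0.0659) did not pass.

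**Figure D2:**
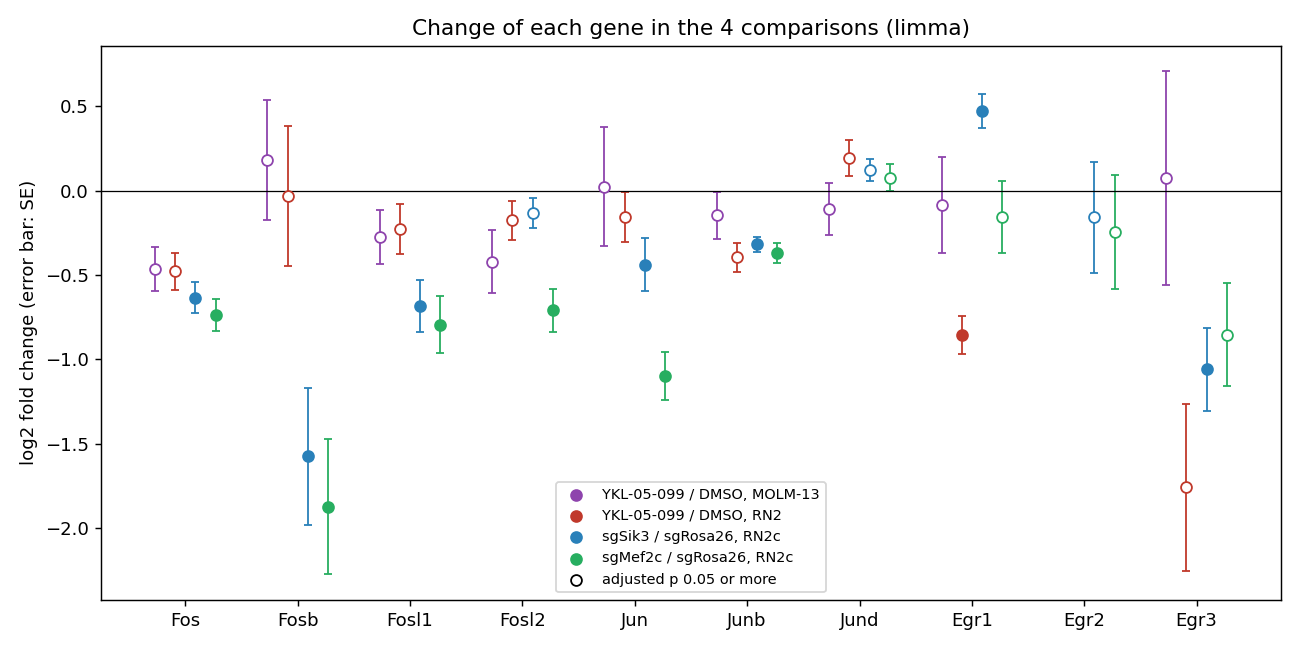
Log2 fold change of each gene in the 4 comparisons (limma, error bars are SE, n = 2 libraries a group), filled where the adjusted p was under 0.05 and open otherwise. Fos is below 0 in all 4, between -0.46 and -0.74, and Egr1 runs between -0.86 in RN2 and 0.47 with sgSik3.

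The 2 h inhibitor was then set against the knockouts by testing the difference of the log2 fold changes itself, with edgeR on recovered reads of the 10 mouse libraries in 1 fit. These differences set a drug at 2 h against a knockout at day 2, in cells with their own controls, so agent, time and infection cannot be told apart. Against sgSik3, Egr1 was the only member called, where 24.2% of the 10939 genes tested were. Its change with YKL-05-099 in RN2 was 1.32 lower on the log2 scale than its change with sgSik3 (difference -1.32, SE 0.24, edgeR adjusted p = 0.00158), and the call held in all 11 alternatives. Egr1 thus moved down with the inhibitor and up with the Sik3 guides, each relative to its own control. The other members showed no called difference from sgSik3, with estimates between -0.60 for Egr3 (SE 0.66) and 1.72 for Fosb (SE 0.67, adjusted p = 0.0782), and Fosb was called without sgRosa26 replicate 1 (adjusted p = 0.0206). Fos (0.17, SE 0.15) and Junb (-0.07, SE 0.10) had small differences.

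Against sgMef2c, Jun was the only member called, where 16.0% of genes were. Its change with the inhibitor in RN2 was 0.96 higher than its change with sgMef2c (SE 0.23, edgeR adjusted p = 0.011). Without RN2 YKL-05-099 replicate 2 the call was lost (adjusted p = 0.0537). Fosb (2.05, SE 0.68, adjusted p = 0.0555), Fosl2 (0.54, SE 0.18, adjusted p = 0.0615) and Egr1 (-0.71, SE 0.25, adjusted p = 0.07) lay just outside the threshold, and Junb (-0.02, SE 0.10) had nearly the same change in both.

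For MOLM-13 the same differences were tested over 10652 genes joined to mouse by symbol, with edgeR on all 14 libraries. Against sgSik3, 0 members were called, where 12.5% of genes were, and 1 had an unadjusted p under 0.05, where 25.5% of genes had (Fosb, 1.82, SE 0.63, adjusted p = 0.0766). Against sgMef2c, 0 were called, where 6.84% of genes were, and 3 had an unadjusted p under 0.05, where 20.1% of genes had. These were Fosb (2.15, SE 0.64, adjusted p = 0.0617), Jun (1.02, SE 0.36, adjusted p = 0.119) and Fosl1 (0.51, SE 0.23, adjusted p = 0.228). DESeq2 called 0 members against sgSik3 and only Fosb against sgMef2c (adjusted p = 0.0409). EGR1 in MOLM-13 differed from its sgSik3 change by -0.49, with an SE of 0.36 (adjusted p = 0.454).

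Between the inhibitor in MOLM-13 and the inhibitor in RN2, 0 members differed by edgeR or by DESeq2, where edgeR called 0.0188% of genes. FOS had the same estimate in both lines (difference 0.00031, SE 0.13). Egr1 was the 1 member with an unadjusted p under 0.05, where 2.97% of genes had one (0.83 higher in MOLM-13, SE 0.37, edgeR adjusted p = 0.9999). MOLM-13 received 250 nM and RN2 350 nM of the inhibitor, so line and dose cannot be told apart.

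The knockouts were also set against each other directly, over the same 10 mouse libraries. Fosl2, Jun and Egr1 were called, all lower with sgMef2c than with sgSik3, where 10.1% of genes were called. The log2 difference was -0.57 for Fosl2 (SE 0.12, edgeR adjusted p = 0.0105), -0.67 for Jun (SE 0.16, adjusted p = 0.0184) and -0.62 for Egr1 (SE 0.16, adjusted p = 0.0284). For Fosl2, both sgSik3 libraries (54.5 and 53.9 RPM) lay above both sgMef2c libraries. The call was lost for Fosl2 without guide e1 (adjusted p = 0.0921), e3 (0.0832) or Mef2c guide 2 (0.0721), for Jun without e3 (0.211), Mef2c guide 1 (0.0651) or 2 (0.0792), and for Egr1 without e1 (0.164), e3 (0.152) or Mef2c guide 1 (0.22). The remaining 7 members were not called, with Fos at -0.11 (SE 0.10) and Junb at -0.05 (SE 0.07).

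**Figure D3:**
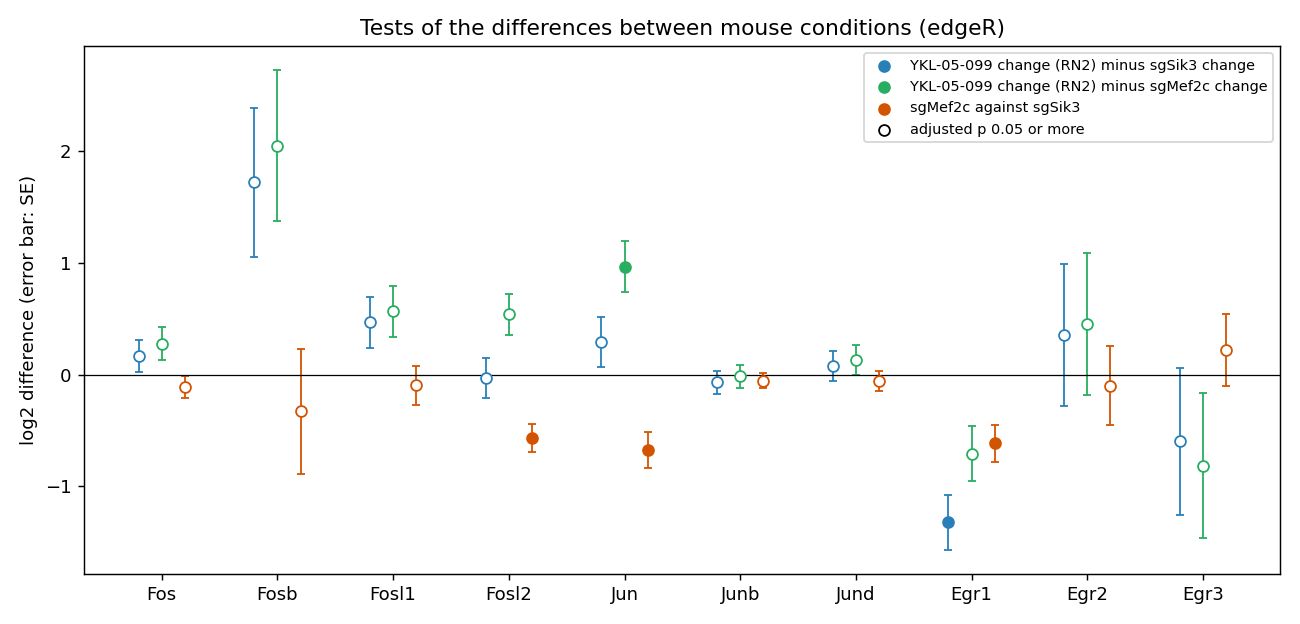
Differences on the log2 scale between the inhibitor change in RN2 and each knockout change, and between sgMef2c and sgSik3 (edgeR, error bars are SE), filled where the adjusted p was under 0.05. Egr1 at -1.32 against sgSik3 and Jun at 0.96 against sgMef2c are the filled points among the inhibitor differences.

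Across the 5 mouse groups, RPM levels from recovered reads showed where these changes started from. Egr1 averaged 11.6 ± 1.15 in RN2 with YKL-05-099, 20.2 ± 0.17 with sgSik3 and 13.4 ± 4.29 with sgMef2c, against 20.9 ± 1.11 in RN2 with DMSO and 14.9 ± 1.96 with sgRosa26 (SD, n = 2 each). The sgSik3 level was thus within the spread of the RN2 DMSO level, and the inhibitor level was the lowest mean, within the spread of sgMef2c. Fos averaged 12.3 ± 0.76 with YKL-05-099, 18.2 ± 0.94 with sgSik3 and 16.9 ± 0.82 with sgMef2c, against 17.0 ± 0.040 in DMSO and 28.9 ± 3.47 with sgRosa26. The Fos level in both knockouts was thus near that of RN2 in DMSO, which was itself lower than that with sgRosa26. Jun averaged 6.63 ± 0.38 with YKL-05-099, 6.85 ± 1.29 with sgSik3 and 4.28 ± 0.29 with sgMef2c, against 7.33 ± 0.37 in DMSO and 9.46 ± 1.37 with sgRosa26. Fosl2 averaged 40.3 ± 4.64 with YKL-05-099, 54.2 ± 0.45 with sgSik3 and 36.6 ± 5.89 with sgMef2c, against 45.4 ± 7.25 in DMSO and 61.1 ± 9.87 with sgRosa26. RN2 and RN2c controls differ in Cas9, infection and treatment, so no test was made between them.

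**Figure D4:**
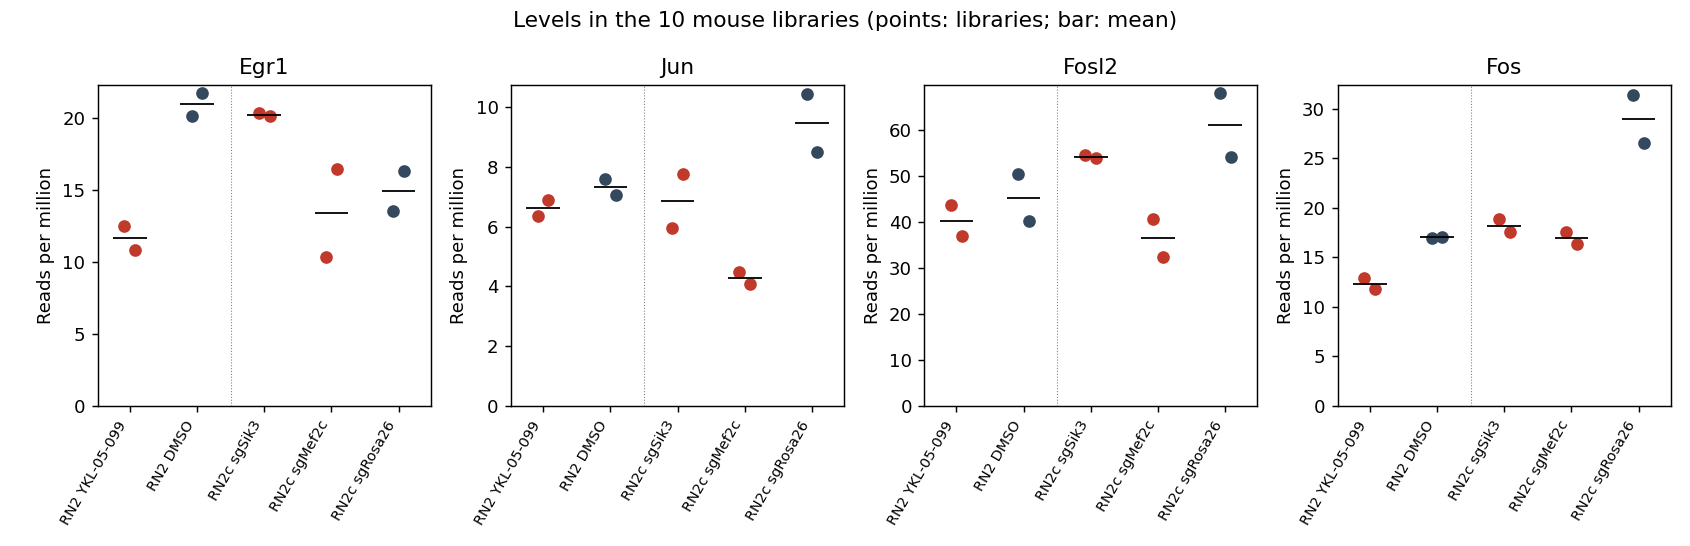
RPM of Egr1, Jun, Fosl2 and Fos in the 10 mouse libraries (points, with a bar at the mean of 2), RN2 left of the dotted line and RN2c right of it. Egr1 is lowest with YKL-05-099 among the RN2 groups and highest with sgSik3 among the RN2c groups, while Jun is lowest with sgMef2c.

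The genes whose 4 log2 fold changes lay closest to those of Fos and of Egr1 were sought among the 8768 genes tested in every comparison, by Euclidean distance, as a description with no test. Closest to Fos were Dusp7, a phosphatase of ERK (distance 0.19), Mfsd2a (0.256) and Map3k12 (0.267). Dusp7 had log2 fold changes of -0.50 in MOLM-13, -0.41 in RN2, -0.76 with sgSik3 and -0.61 with sgMef2c. Egr1 had no gene as close, with Slc26a1 at 0.346, Ano7 at 0.479 and Eva1b at 0.492.

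Other genes of the same pathways were read from lists. In MOLM-13, limma called 0 members of every list, as it called 0 genes in all, with 144 genes at an unadjusted p under 0.05, and edgeR called 0 and DESeq2 7. In RN2, among 24 tested other immediate early genes, 2 fell and 0 rose, and no other list held a call. Myc, the growth regulator, read 2318 and 2026 with YKL-05-099, against 3450.4 and 2908 with DMSO (log2 fold change -0.55, SE 0.08, limma adjusted p = 0.026), and Zfp36, which destabilizes AU-rich messages, read 481 and 464, against 657 and 624 (-0.44, SE 0.07, adjusted p = 0.0474). Nab2, the EGR corepressor that is itself an EGR target, read 318 and 270 with the inhibitor, against 427 and 398, below the controls but not past the test (-0.49, SE 0.10, adjusted p = 0.122).

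The counts with sgSik3 stand beside 23.9% of all genes called higher and 23.9% called lower, and several lie near these shares. With sgSik3, 9 of these 24 early genes rose and 4 fell. Myc (log2 fold change -0.73, SE 0.04) and Zfp36 (-0.78, SE 0.07) fell, and Dusp1, a phosphatase of MAP kinases (0.97, SE 0.15), and Btg2, an antiproliferative gene (0.58, SE 0.10), rose, all with limma adjusted p of 0.00117 or less. Of 10 tested partners of FOS and JUN proteins, 3 rose and 3 fell, among them Jdp2, a repressor of AP-1 (0.51, SE 0.06), which rose, and Atf3 (-1.70, SE 0.42), which fell. Of 8 SRF partners and EGR corepressors, 3 rose and 1 fell, with Mkl1, an actin-linked SRF coactivator, higher (0.51, SE 0.04). Of 17 RAS, RAF and MAP kinase genes, 7 rose and 2 fell, and of 12 ERK feedback and output genes, 2 rose and 2 fell. Ccnd1 is counted there and among the AP-1 targets. Of 8 CREB targets, 3 rose, Pde4b (0.97, SE 0.07), Dusp1 and Pde4d (0.32, SE 0.08), and 1 fell, Nr4a1 (-0.61, SE 0.12). Of 14 genes known as AP-1 targets, 4 rose and 5 fell, including Mmp9, a matrix protease (3.14, SE 0.18), and Ccnd1, cyclin D1 (-1.18, SE 0.04). Of 8 heat shock genes, 0 rose and 5 fell, led by Hspd1 (-0.83, SE 0.03).

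The counts with sgMef2c stand beside 16.3% of all genes called higher and 15.1% called lower, and several lie near these shares. With sgMef2c, 5 of the 24 early genes rose and 4 fell, with Zfp36 (log2 fold change -0.76, SE 0.07) and Myc (-0.36, SE 0.04) lower and Cited2 (0.65, SE 0.07) and Gadd45b (0.49, SE 0.08) higher, all with limma adjusted p of 0.00558 or less. Of the 10 partners, 1 rose, Jdp2 (0.58, SE 0.08), and 3 fell, Atf7 (-0.33, SE 0.04), Mafg (-0.20, SE 0.04) and Atf3 (-1.07, SE 0.27). Of the 8 SRF partners and corepressors, 1 rose, Mkl1 (0.40, SE 0.06), and 2 fell, Elk3, an ETS partner of SRF (-0.99, SE 0.10), and Nab2 (-0.31, SE 0.08). Of 12 ERK feedback and output genes, 1 rose and 5 fell, among them Ccnd1 (-1.28, SE 0.12), Dusp5 (-0.62, SE 0.09) and Dusp4 (-0.72, SE 0.13). Ccnd1 is counted again among the AP-1 targets. Of 17 kinase genes, 3 rose and 2 fell, of 8 CREB targets, 3 rose and 0 fell, of 14 AP-1 targets, 1 rose and 6 fell, and of 8 heat shock genes, 0 rose and 4 fell. Beside these, 7 of the 8 myeloid and pan-leukocyte markers rose with sgSik3 and 5 with sgMef2c, with 0 falling in either. Of the markers of other cells, 3 passed the level filter with sgSik3 and 4 with sgMef2c, and 1 fell in each, Cpa3.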

How the data were processed

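The submitters' processing notes name HISAT2, featureCounts, DESeq2, hg19 and mm10, with no version or strand setting. Each of the 4 tables the authors deposited holds a DESeq2-normalized signal on a linear scale, the read count over the library's size factor. Dividing each value by the smallest nonzero value of its library gave whole reads for 100% of values (tolerance 1e-06 reads). The recovered sgRosa26 reads were the same in both RN2c tables (0 genes differed).

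Genes with a mean of at least 10 were tested within each table, 2 libraries against 2, with limma 3.58.1 (empirical Bayes with trend, two-sided; R 4.3.3) after taking log2(value + 1), and p-values were adjusted by Benjamini-Hochberg over all genes, with a threshold of 0.05. Differences of fold changes used edgeR 4.0.16 (quasi-likelihood, TMM within each line) on recovered reads. DESeq2 1.42.0 and edgeR on recovered reads served as alternatives, beside no trend, pseudocounts of 0.5 and 5, no filter or a minimum of 50, TMM, leaving out each library and a replicate block. The scripts were tested on simulated data. Replicate libraries differed by more than sampling noise (chi-square per degree of freedom 1.71 to 14.42), so each was counted once. The members and gene lists were chosen with earlier results of these data known. Named besides the members were up to 4 genes of lowest p in each list and the 3 genes closest to Fos and to Egr1.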

Additional observations from a re-analysis of the deposited data

Results flagged for a closer look

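Among the members, 5 differences between conditions passed a direct test in edgeR on recovered reads. The change of Egr1 with YKL-05-099 in RN2 was below its change with sgSik3 by a log2 difference of -1.324 (adjusted p = 0.00158), and the call held in all 11 alternatives. The change of Jun with YKL-05-099 in RN2 exceeded its change with sgMef2c by 0.9638 (adjusted p = 0.011), and the call was lost without YKL-05-099 replicate 2 (adjusted p = 0.0537). Between the knockouts, sgMef2c libraries were lower than sgSik3 libraries for Fosl2 (-0.5697), Jun (-0.673) and Egr1 (-0.6164), with adjusted p of 0.0105, 0.0184 and 0.0284. Each of these 3 calls was lost when any of 3 libraries was left out, with the adjusted p between 0.0651 and 0.22. With 2 libraries a group, no library was examined for standing apart from the others of its group.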

How the results depend on the processing

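Fos and Junb with either knockout, Egr1 with sgSik3 and Jun with sgMef2c stayed called in limma, edgeR and DESeq2 and in the other alternatives run. Without the trend or without the level filter, 0 members were called in RN2, against 1, and without the trend 4 with sgSik3, against 7. Over all genes, no trend called 0 in RN2 and 4007 with sgSik3, and no filter called 3 in RN2. With one library left out, called members ranged from 1 to 4 in RN2 and from 3 to 8 with sgSik3. In full, the differences called 1 member for RN2 against sgSik3, 1 for RN2 against sgMef2c and 3 between the knockouts. They called 0 for MOLM-13 against sgSik3 and 0 against sgMef2c. Library totals in place of TMM gave 3 members for RN2 against sgMef2c, among 1809 genes against 1755 in full. DESeq2 gave 1 for MOLM-13 against sgMef2c, among 804 genes against 729.

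Directions changed only for estimates that were called neither in full nor in the setting that changed them. With one library left out, 17 estimates changed direction by more than their SE and are given here, and another 15 by less. Other settings turned 6 estimates by less than their SE, among them EGR3 (-0.26 with edgeR) and JUN (-0.09) in MOLM-13. In MOLM-13 the log2 fold changes ranged from -0.32 to 0.68 for FOSB, -0.48 to 0.53 for JUN, -0.91 to 1.06 for EGR3, -0.28 to 0.0659 for JUND, -0.29 to 0.0032 for JUNB and -0.44 to 0.27 for EGR1. They ranged from -0.29 to 0.0254 for Fosl2 with sgSik3, and with sgMef2c from -0.50 to 0.19 for Egr1 and from -0.0098 to 0.17 for Jund. Differences ranged from -0.0673 to 0.20 for Jund in RN2 against sgSik3 and from -0.0105 to 0.26 against sgMef2c, and from -0.14 to 0.54 for Egr3 between the knockouts. For MOLM-13 they ranged from -0.0446 to 0.98 for Jun against sgSik3, from -0.36 to 0.0014 for Jund and -0.31 to 0.48 for Egr1 against sgMef2c, and from -0.33 to 0.70 for Jun and -0.46 to 0.0038 for Fosl2 against RN2. The cause was not tested.

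With the replicate number as a block, 2 members were called in MOLM-13 (Fos and Fosl2, both lower, adjusted p = 5.8e-07 and 9e-13) among 290 genes, 4 in RN2 (Fos, Junb, Egr1 and Egr3) among 499 genes and 7 with sgMef2c (Egr3 added, adjusted p = 0.0044) among 3905. Deviations of same-numbered libraries correlated at 0.53, 0.22 and 0.05, over 2 numbers each, and the labels do not say that a number marks a shared day or batch. The sgMef2c numbers are guide numbers. For the sgSik3 comparison no paired analysis was possible, because guides e1 and e3 share fewer than 2 numbers with sgRosa26.

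Over all genes, limma called 0 in MOLM-13, 34 in RN2, 5226 with sgSik3 and 3442 with sgMef2c. With one library left out these were 14 to 20, 28 to 321, 3577 to 5481 and 1815 to 3138. DESeq2 called 7 in MOLM-13 and 2255 with sgMef2c, no trend gave 0 in RN2 and 1628 with sgMef2c, and no filter 3 in RN2. Between the knockouts edgeR called 1105 genes, DESeq2 727, and 263 to 830 with one library left out, and for MOLM-13 against RN2 edgeR called 2 and DESeq2 9. The other differences moved past 1.5 times only with one library left out: 1703 to 2348 against 2645 and 1046 to 1979 against 1755 for RN2 against sgSik3 and sgMef2c, and 575 to 1492 and 277 to 932 for MOLM-13. With 2 libraries a group and fewer than 25 reads per library for Egr2 and, in RN2, for Fosb and Egr3, modest changes of these genes were not detectable at this depth.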
